A study of Homo sapiens with 6 samples.

Results

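The genes described are 35 genes of the MYC network and of nucleolar ribosome biogenesis, taken as a named list and found by the single Entrez identifier that the authors' deposited table gives each probe set. All 35 were measured, among 18712 genes in all, and a gene with several probe sets was read from the brightest on average. The RNA came from U251 cells, a human glioma cell line, in which a lentivirus delivered a short hairpin RNA. The knockdown cells (shCPVL, 3 arrays) carried a hairpin against CPVL, a serine carboxypeptidase gene, and the control cells (shCtrl, 3 arrays) carried a negative control hairpin, so the viral vector and a hairpin were common to both groups. The labels name 1 hairpin target per group and do not say whether the 3 arrays of a group came from separate cultures, so the p-values reflect array-to-array spread only, and that spread could be technical.

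MYC is a transcription factor that dimerises with MAX and binds E-box sequences, while the MXD proteins and MNT compete for MAX and repress many of the same promoters. Growth-promoting genes, polyamine synthesis and ribosome production are textbook MYC targets. Ribosomes are begun in the nucleolus: RNA polymerase I transcribes the precursor of ribosomal RNA, small nucleolar ribonucleoproteins (snoRNPs) of the box C/D and box H/ACA classes modify it, and separate sets of factors fold and cut it into the small and the large subunit. Fast-growing tumour cells often have enlarged nucleoli.

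Values are log2 expression after RMA, which brings the arrays close to a common distribution (array medians 6.845 to 6.870). Each difference is therefore relative to the bulk of the transcripts on the array. A change in total RNA, or in ribosomal RNA itself, cannot be seen. Differences are shCPVL minus shCtrl, tested with limma across all 18712 genes, and "rose" or "fell" is used where the Benjamini-Hochberg adjusted p was under 0.05. The knockdown was visible in its target: CPVL measured 7.38, 7.25 and 7.21 in the shCPVL arrays, against 8.24, 8.39 and 8.18 in the shCtrl arrays, a difference of -0.99 (limma adjusted p = 8.3e-05; two-sided exact permutation p = 0.1, the smallest that 3 against 3 arrays allow). Arrays of 1 group correlated at 0.9974 to 0.9986. Vimentin (VIM), CD44 and nestin (NES), which U251 cells as glioma cells should express, lay far above the background probe sets in every array, at 13.1 or more for the first 2 and 11.6 or more for NES, where the background mean was 4.91 in shCPVL and 4.95 in shCtrl. AQP4, a marker of mature astrocytes, lay at or below 4.09 in all 6 arrays.

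The promoters of the genes on which the results turn are shown first, since MYC and its partners act through the E-box CACGTG. GAR1, DKC1 and NHP2, which encode proteins of the box H/ACA snoRNP, are given with NOP10, the remaining core gene of that particle, which is not one of the 35. FBL, the methyltransferase of the box C/D particle, and ODC1, a polyamine enzyme long used as a MYC target, follow. Each sequence is the RefSeq window of 250 bases before to 50 bases after a gene start, read along the gene, with every CACGTG in capitals.
GAR1 promoter, GRCh38.p14, chr4:109815512-109815811, plus strand: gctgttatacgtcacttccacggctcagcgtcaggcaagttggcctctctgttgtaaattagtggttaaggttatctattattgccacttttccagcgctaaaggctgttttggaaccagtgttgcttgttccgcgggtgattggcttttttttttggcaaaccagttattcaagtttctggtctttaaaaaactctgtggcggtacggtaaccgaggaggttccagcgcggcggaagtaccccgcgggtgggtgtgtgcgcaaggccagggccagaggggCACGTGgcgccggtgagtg
DKC1 promoter, GRCh38.p14, chrX:154762614-154762913, plus strand: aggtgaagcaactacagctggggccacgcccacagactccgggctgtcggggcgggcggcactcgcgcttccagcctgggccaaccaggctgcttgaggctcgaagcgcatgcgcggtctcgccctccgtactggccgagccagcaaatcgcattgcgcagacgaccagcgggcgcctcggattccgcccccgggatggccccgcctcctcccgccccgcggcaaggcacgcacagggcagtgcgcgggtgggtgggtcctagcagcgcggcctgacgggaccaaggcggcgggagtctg
NHP2 promoter, GRCh38.p14, chr5:178153836-178154135, minus strand: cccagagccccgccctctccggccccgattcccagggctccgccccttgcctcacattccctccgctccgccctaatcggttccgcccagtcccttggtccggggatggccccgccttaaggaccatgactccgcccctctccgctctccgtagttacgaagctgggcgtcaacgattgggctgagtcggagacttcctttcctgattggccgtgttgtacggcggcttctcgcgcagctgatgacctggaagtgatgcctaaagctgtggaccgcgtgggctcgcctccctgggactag
NOP10 promoter, GRCh38.p14, chr15:34343087-34343386, minus strand: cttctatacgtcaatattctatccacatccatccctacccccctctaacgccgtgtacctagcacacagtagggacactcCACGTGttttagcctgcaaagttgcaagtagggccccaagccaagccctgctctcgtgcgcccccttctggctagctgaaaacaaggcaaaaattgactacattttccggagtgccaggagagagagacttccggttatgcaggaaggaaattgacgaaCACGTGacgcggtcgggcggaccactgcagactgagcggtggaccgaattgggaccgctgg
FBL promoter, GRCh38.p14, chr19:39846330-39846629, minus strand: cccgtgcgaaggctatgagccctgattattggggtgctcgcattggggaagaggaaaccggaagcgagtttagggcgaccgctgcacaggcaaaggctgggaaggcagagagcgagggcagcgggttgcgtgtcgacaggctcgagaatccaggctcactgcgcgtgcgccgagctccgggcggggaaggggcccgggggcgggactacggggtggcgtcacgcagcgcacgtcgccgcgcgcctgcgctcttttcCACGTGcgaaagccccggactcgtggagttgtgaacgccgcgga
ODC1 promoter, GRCh38.p14, chr2:10447963-10448262, minus strand: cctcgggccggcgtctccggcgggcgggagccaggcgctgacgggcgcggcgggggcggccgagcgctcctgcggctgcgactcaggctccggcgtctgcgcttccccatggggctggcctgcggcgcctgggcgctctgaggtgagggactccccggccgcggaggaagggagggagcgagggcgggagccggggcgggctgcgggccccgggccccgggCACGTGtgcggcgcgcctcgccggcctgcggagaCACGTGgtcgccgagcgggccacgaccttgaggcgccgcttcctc
GAR1 and ODC1 have 2 windows each in the table. Theirs are printed for the inner of 2 alternative starts, chosen because they hold the motif; they lie inside the annotated gene, and the windows of the outermost starts of both genes held no CACGTG. The motif began at base 282 of the GAR1 window, base 257 of the FBL window, bases 81 and 240 of the NOP10 window and bases 222 and 256 of the ODC1 window. The windows of DKC1 and NHP2 held no CACGTG.

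Windows were found for 29 of the 35 genes, and 13 of these 29 (44.8%) held CACGTG in at least 1 window, against 10.9% of the 14717 genes on the arrays that had a window. The motif is its own reverse complement, so both strands were read at once. Among genes with a window, 3 of 6 genes that fell, 0 of 2 that rose and 10 of 21 that were not called had it. When only the outermost start of each gene was read, an alternative chosen after seeing the data, 10 of the 29 (34.5%) held it, against 8.77% of the genes on the arrays, and of the genes that fell 1 of 6 had it. Because the genes were picked for their part in MYC biology, the share describes the list and is not a test of MYC binding.

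Most of the 35 genes were not called. In shCPVL 7 fell (GAR1, DKC1, BOP1, ODC1, NHP2, WDR12 and FBL) and 3 rose (MXD1, MYC and MAX), 28.6% of the list, where 20.1% of all genes tested were called. Of all genes 11.6% fell and 8.45% rose, beside 8.57% of the list that rose and 20% that fell: against all genes, the rises were at the background and the falls above it. All genes include dim ones, which are seldom called, whereas all 35 lay above the background probe sets. With the lowest 40% of genes left out, more genes were called from fewer tested (4556), and 4 of the list rose and 9 fell. An excess of falls over brighter genes is therefore not shown. The median log2 change of the 35 genes was -0.05, beside -0.01 over all genes. With the further demand of a 1.5-fold change, only GAR1 remained, where 1.29% of all genes fell and 1.22% rose that far.

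**Figure D1:**
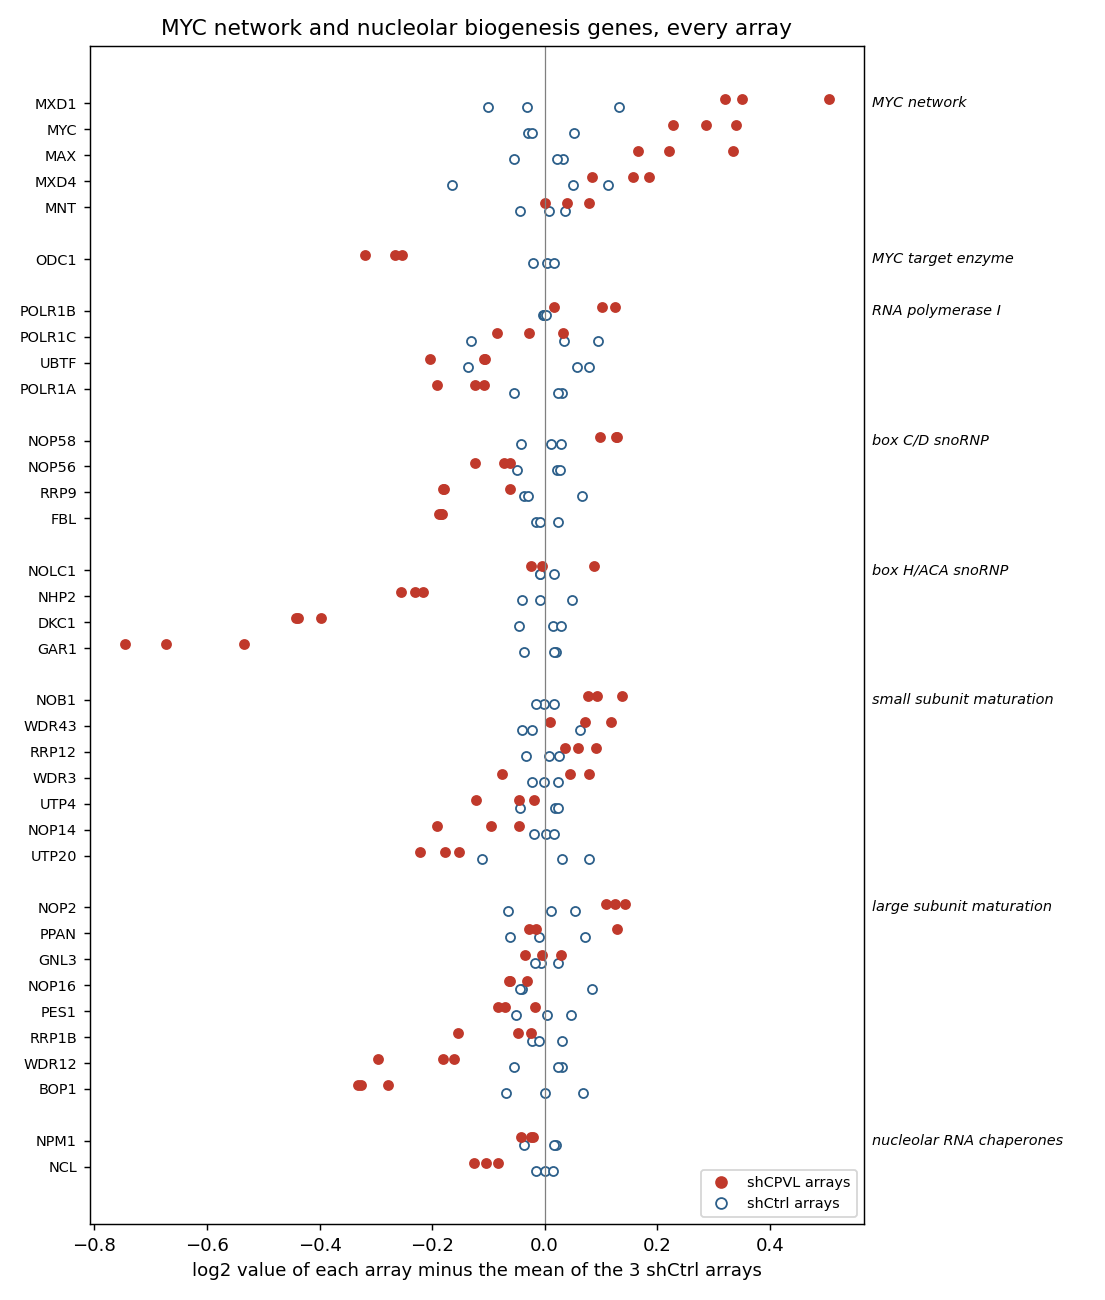
Log2 value of each array minus the mean of the 3 shCtrl arrays (horizontal axis) for the 35 genes, grouped by role; filled points are shCPVL arrays and open points shCtrl arrays. The 3 shCPVL points of GAR1, DKC1 and NHP2 lie clear to the left of their shCtrl points, those of MYC, MAX and MXD1 clear to the right; in 13 of the 35 genes the groups overlap.

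Of the 5 MYC network genes 3 rose and 0 fell. MYC measured 9.61, 9.56 and 9.50 in the shCPVL arrays, against 9.24, 9.32 and 9.25 in the shCtrl arrays. Every shCPVL array exceeded every shCtrl array, and the difference was 0.29 (SE 0.05, limma adjusted p = 0.0067), a 1.22-fold level. MYC is read by a single probe set on this array, as are FBL, BOP1 and ODC1 among the called genes.

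MAX, the obligate partner of MYC and of its antagonists, measured 9.47, 9.30 and 9.36 in the shCPVL arrays, against 9.17, 9.16 and 9.08 in the shCtrl arrays. The groups did not overlap and the difference was 0.24 (SE 0.06, limma adjusted p = 0.025). Of its 12 probe sets 4 rose and 0 fell when all single-identifier probe sets were tested, where 19.1% of them were called, and the 12 differences ran from -0.03 to 0.36. The call of MAX was lost without shCPVL replicate 1, shCtrl replicate 1 or shCtrl replicate 3, with differences of 0.19 to 0.28 over all single-array removals.

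MXD1, which encodes an antagonist that pairs with MAX to repress MYC targets, had the greatest rise among the 35 genes. Its values were 6.98, 6.82 and 6.79 in the shCPVL arrays, against 6.44, 6.60 and 6.37 in the shCtrl arrays, without overlap, a difference of 0.39 (SE 0.08, limma adjusted p = 0.0091). The other MXD1 probe set, at 4.61 in shCPVL and 4.57 in shCtrl, differed by 0.05 and was not called. It lay below the background mean but above the background median (3.55 in shCPVL, 3.59 in shCtrl). With the mean of both probe sets MXD1 differed by 0.22. MYC and this antagonist stood higher in the same arrays.

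MXD4 and MNT, further repressors that bind MAX, were not called. MXD4 measured 7.73, 7.71 and 7.63 in the shCPVL arrays, against 7.60, 7.66 and 7.38 in the shCtrl arrays, where shCtrl replicate 3 was the lowest value and the groups overlapped (difference 0.14, 95% interval -0.04 to 0.32). MNT measured 8.01, 8.08 and 8.04 in the shCPVL arrays, against 8.04, 8.01 and 7.96 in the shCtrl arrays, also with overlap, and had an interval of -0.07 to 0.15. For MNT a change of 1.2-fold, which is 0.263 on the log2 scale, lies outside that interval.

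**Figure D2:**
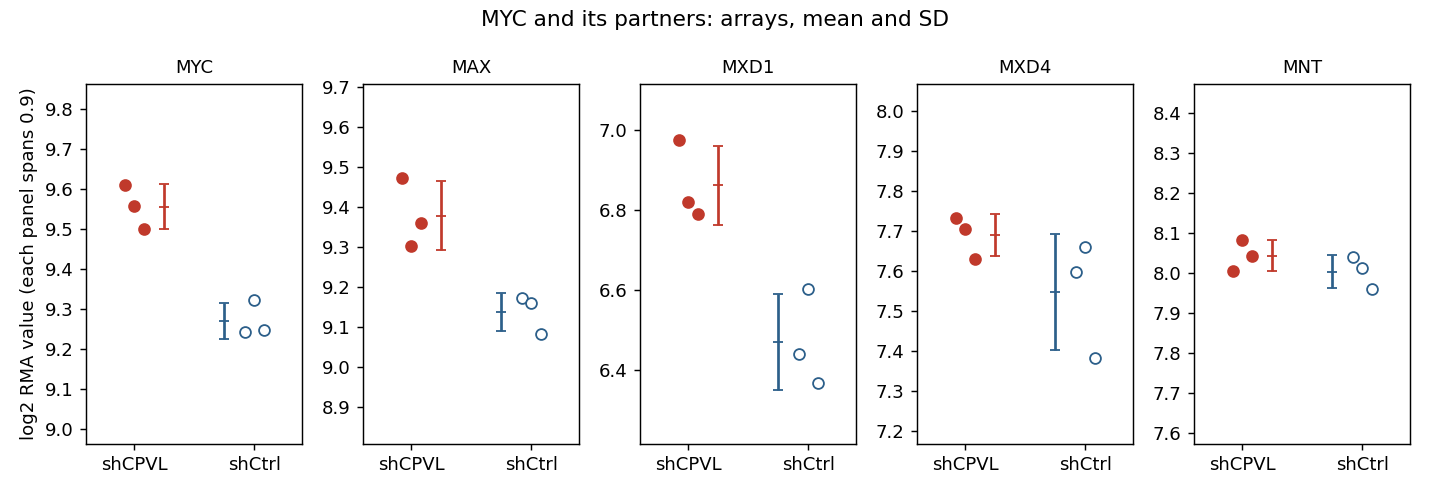
Log2 RMA values of the 5 MYC network genes in the 3 shCPVL arrays (filled) and the 3 shCtrl arrays (open), with mean and SD beside them; every panel spans 0.9 log2 units around its own centre. MYC, MAX and MXD1 separate completely, while MXD4 and MNT overlap.

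Other genes of the network, taken as a list of 12 outside the 35, included 1 that rose and 4 that fell. Over all genes tested 8.45% rose and 11.6% fell. MXD3, an MXD family member, fell by 0.49, the MLX partner gene MLXIP fell by 0.49, and HUWE1, a ubiquitin ligase that can act on MYC, fell by 0.41. With the median of a gene's probe sets none of these 3 was called, and MXD3 stood at 0.08, MLXIP at -0.17 and HUWE1 at -0.003; HUWE1 was not called with their mean either. AURKA, a mitotic kinase that can stabilise MYC-family proteins, fell by 0.27, and FBXW7, the ubiquitin ligase subunit that marks MYC for degradation, rose by 0.38; both were named after their values were seen. MYCN differed by 0.06 and was not called, nor was MYCL at 0.26 (limma adjusted p = 0.14), also named after their values were seen.

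ODC1, which encodes ornithine decarboxylase, the first enzyme of polyamine synthesis, fell. Its values were 11.32, 11.31 and 11.26 in the shCPVL arrays, against 11.58, 11.59 and 11.55 in the shCtrl arrays. All shCPVL arrays lay below all shCtrl arrays, with SDs of 0.03 in shCPVL and 0.02 in shCtrl, and the difference was -0.28 (SE 0.05, limma adjusted p = 0.0041). Of 17 measured genes in a separate list of textbook MYC targets 4 fell and 0 rose, at 23.5% called, with a median of -0.10. Of all genes tested 20.1% were called and 11.6% fell. The 3 with the greatest change were CDK4, a cyclin-dependent kinase (-0.33), CAD, the enzyme that begins pyrimidine synthesis (-0.29), and SRM, spermidine synthase and so a later step of the polyamine pathway of ODC1 (-0.25). SHMT2 also fell (-0.22), was named after its value was seen, and lost its call without shCPVL replicate 2 or shCtrl replicate 1.

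Of the 4 box H/ACA genes in the list (GAR1, DKC1, NHP2 and NOLC1) 3 fell and 0 rose. GAR1 and DKC1 had the greatest decreases among the 35 genes. The box H/ACA snoRNP converts uridines of ribosomal RNA to pseudouridine, and the same core proteins bind telomerase RNA. Its core consists of dyskerin (DKC1), the pseudouridine synthase, with GAR1, NHP2 and NOP10. Of these core genes NOP10 is outside the list, and it rose.

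GAR1 measured 8.87, 8.73 and 8.66 in the shCPVL arrays, against 9.37, 9.43 and 9.42 in the shCtrl arrays. All shCPVL arrays lay below the lowest shCtrl array, and the difference of -0.65 (SE 0.06, limma adjusted p = 3.4e-04) left 0.637 of the control level (95% interval of the log2 difference -0.80 to -0.50). The change exceeded in size that of 98% of all genes. Its second probe set fell by 0.87, to 6.90 in shCPVL, against 7.76 in shCtrl. GAR1 was called under every alternative run, including a test against a minimum fold of 1.2.

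DKC1 measured 10.95, 10.95 and 10.99 in the shCPVL arrays, against 11.41, 11.42 and 11.35 in the shCtrl arrays. The groups did not overlap, the difference was -0.43 (SE 0.05, limma adjusted p = 6.5e-04), and the second probe set fell by 0.40. NHP2, whose protein binds the H/ACA RNA beside dyskerin, measured 11.84, 11.88 and 11.87 in the shCPVL arrays, against 12.09, 12.15 and 12.06 in the shCtrl arrays. It differed by -0.23 (SE 0.05, limma adjusted p = 0.011), and all 3 of its probe sets fell, by between 0.23 and 0.34. Both genes were called whichever single array was left out.

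NOP10, the gene of the smallest core protein, rose. It measured 11.99, 12.05 and 11.93 in the shCPVL arrays, against 11.64, 11.71 and 11.66 in the shCtrl arrays, a difference of 0.32 (SE 0.05, limma adjusted p = 0.0039) seen in all 3 shCPVL arrays, and it too was called whichever single array was left out. NOLC1, a nucleolar chaperone of snoRNPs, averaged 11.46 ± 0.06 in shCPVL and 11.44 ± 0.01 in shCtrl (SD, n = 3 each) and overlapped between the groups (interval -0.10 to 0.14). TERT, the telomerase catalytic subunit gene, named after its value was seen, differed by -0.04 and was not called.

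**Figure D3:**
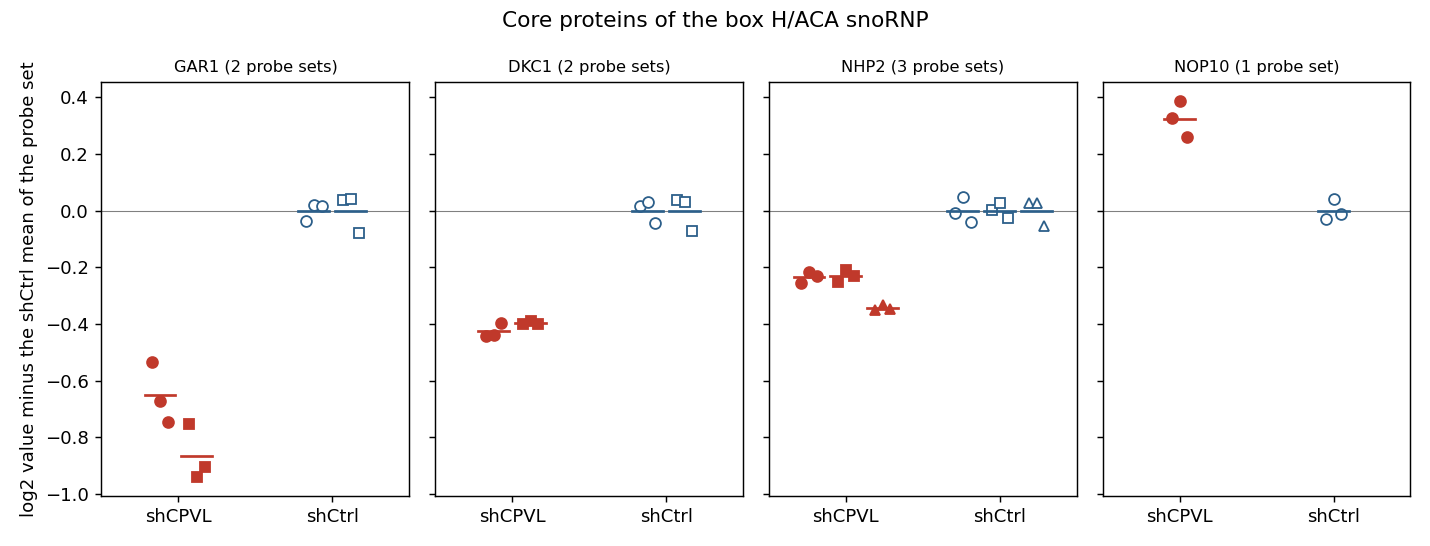
Every probe set of the 4 core genes of the box H/ACA particle, as log2 value minus that probe set's shCtrl mean, in shCPVL (filled, left) and shCtrl (open, right); marker shapes separate probe sets and short lines are means of 3 arrays. All 7 probe sets of GAR1, DKC1 and NHP2 lie lower in shCPVL, and the probe set of NOP10 lies higher.

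Of the 4 genes of the box C/D particle, which guides ribose methylation of ribosomal RNA, 1 fell and 0 rose. FBL, which encodes its methyltransferase fibrillarin, measured 12.20, 12.20 and 12.21 in the shCPVL arrays, against 12.37, 12.41 and 12.38 in the shCtrl arrays. The 3 shCPVL arrays lay close together and below every shCtrl array, with a difference of -0.18 (SE 0.04, limma adjusted p = 0.022). The call was lost without shCPVL replicate 1, shCPVL replicate 2, shCtrl replicate 1 or shCtrl replicate 2, where the difference stayed between -0.19 and -0.17.

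The scaffold genes of the same particle, NOP58 and NOP56, were not called. NOP58 measured 11.63, 11.63 and 11.60 in the shCPVL arrays, against 11.51, 11.53 and 11.46 in the shCtrl arrays, higher in every shCPVL array, with a difference of 0.12 that was not called (limma adjusted p = 0.13). In 5 of 18 alternatives NOP58 was called. These were quantile normalization once more, an intensity trend, array weights and both filters on low genes. NOP56 measured 11.10, 11.15 and 11.16 in the shCPVL arrays, against 11.24, 11.25 and 11.17 in the shCtrl arrays, lower in every shCPVL array, with a difference of -0.09 that was not called (limma adjusted p = 0.3). RRP9, which binds the particle that starts precursor processing, stood at -0.14 (interval -0.27 to -0.01) and was not called either. Among 12 further snoRNP components and assembly factors, NOP10 rose and the ATPase gene RUVBL2 fell by 0.22. The RUVBL2 call was lost without shCPVL replicate 1 or 2 or shCtrl replicate 1 or 2. It was also lost with the mean of its probe sets and without x_at and s_at probe sets.

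Of the 4 genes of RNA polymerase I transcription in the list limma called 0, with 1 at an unadjusted p under 0.05. POLR1A, the largest subunit, measured 8.05, 8.06 and 7.98 in the shCPVL arrays, against 8.20, 8.20 and 8.12 in the shCtrl arrays, all lower in shCPVL, but its difference of -0.14 did not pass (limma adjusted p = 0.098). POLR1B, the second-largest subunit, stood at 0.08, and POLR1C, which RNA polymerase III also uses, at -0.03. UBTF, the activator that binds ribosomal DNA, averaged 7.85 ± 0.06 in shCPVL and 7.99 ± 0.12 in shCtrl (SD, n = 3 each), where shCtrl replicate 3 overlapped the shCPVL arrays. One of its 4 probe sets fell (-0.35) and the other differences were -0.14 to -0.02.

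Polymerase I genes outside the 35 were lower in part. Of 12 listed, 3 fell and 1 rose, or 25% and 8.33%, where 11.6% of all genes fell and 8.45% rose. POLR1E and POLR1F, subunits particular to polymerase I, fell by 0.35 and 0.31, the initiation factor gene RRN3 fell by 0.23 (named after its value was seen), and TAF1D, of the promoter selectivity complex, rose by 0.26. The call of TAF1D was lost without shCPVL replicate 2 or shCtrl replicate 1, and that of RRN3 without shCPVL replicate 2.

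Of the small subunit factors limma called 0 of 7, with 1 at an unadjusted p under 0.05. Their differences ran from -0.18 for UTP20, a scaffold of the early precursor, to 0.10 for NOB1, the endonuclease that makes the final cut. NOB1 measured 10.58, 10.62 and 10.56 in the shCPVL arrays, against 10.48, 10.50 and 10.47 in the shCtrl arrays, higher in every shCPVL array, and UTP20 measured 7.18, 7.11 and 7.16 in the shCPVL arrays, against 7.37, 7.41 and 7.22 in the shCtrl arrays, lower in every one, and neither passed the test (limma adjusted p = 0.17 and 0.075). UTP20 was called without shCtrl replicate 3, at -0.24 (limma adjusted p = 0.027). It was also called with quantile normalization once more, array weights and both filters on low genes. UTP4, WDR3, WDR43, NOP14 and RRP12, further members of or partners to the small subunit precursor, lay between -0.11 (NOP14) and 0.07 (WDR43). Of 42 other small subunit genes 3 fell and 1 rose, 9.52% called, under the 20.1% of all genes. FCF1, a factor of the early precursor, fell by 0.66, HEATR1 by 0.25 and NOL10 by 0.20 (named after its value was seen), while the helicase gene DDX10 rose by 0.39. When probe sets were summarised by their median, FCF1 was -0.29 and HEATR1 0.05. The call of NOL10 was lost without shCPVL replicate 2 or 3 or shCtrl replicate 1 or 2. It was also lost with the mean or median of the NOL10 probe sets. Without shCtrl replicate 3 the count of the 42 that fell was 5.

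In the large subunit branch, 2 of 8 genes fell and 0 rose. BOP1, PES1 and WDR12 together form the PeBoW complex, needed to process the large subunit precursor, and 2 of these 3 fell. BOP1 measured 9.666, 9.671 and 9.720 in the shCPVL arrays, against 9.999, 10.065 and 9.928 in the shCtrl arrays, a difference of -0.31 (SE 0.05, limma adjusted p = 0.0047) with no overlap. Its single probe set is aligned in the authors' table to 2 places on chromosome 8. WDR12 measured 9.28, 9.26 and 9.14 in the shCPVL arrays, against 9.47, 9.46 and 9.38 in the shCtrl arrays, a difference of -0.21 (SE 0.06, limma adjusted p = 0.032). That call was lost without shCPVL replicate 2 or 3 or shCtrl replicate 1 or 2 (-0.24 to -0.17 over all single-array removals). It was also lost with the mean or median of the WDR12 probe sets. The other 2 WDR12 probe sets, at -0.16 and 0.05, were not called.

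PES1, the third member of the complex, measured 8.95, 8.89 and 8.88 in the shCPVL arrays, against 9.01, 8.97 and 8.91 in the shCtrl arrays, with overlap and an interval of -0.17 to 0.06. NOP2, a methyltransferase of large subunit RNA, measured 8.22, 8.24 and 8.21 in the shCPVL arrays, against 8.11, 8.15 and 8.03 in the shCtrl arrays, higher in every shCPVL array, but its difference of 0.13 was not called (limma adjusted p = 0.13); 1 of its 3 probe sets rose (0.20). GNL3, the stem cell gene nucleostemin, was the closest to no change, at 10.32 ± 0.03 in shCPVL and 10.32 ± 0.02 in shCtrl (SD, n = 3 each; interval -0.11 to 0.10). NOP16, PPAN and RRP1B differed by -0.05, 0.03 and -0.07, with limma adjusted p of 0.6, 0.83 and 0.42. A PPAN probe set that the authors' table assigns to 2 genes stood at -0.17 and was not called (limma adjusted p = 0.054).

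Of 44 large subunit genes outside the 35, 12 fell and 1 rose, 29.5% called. Over all genes tested 11.6% fell, 8.45% rose and 20.1% were called. All genes include dim ones, which are seldom called, so an excess of falls over brighter genes is not shown. The helicase genes DDX18 and DDX54 fell by 0.57 and 0.42, and SDAD1, the homologue of a yeast large subunit factor, fell by 0.29; NOP53, named after its value was seen, rose by 0.21. Leaving out single arrays lowered the count that fell, to 7 without shCPVL replicate 1, 4 without shCPVL replicate 2, 6 without shCPVL replicate 3, 4 without shCtrl replicate 1, 5 without shCtrl replicate 2 and 7 without shCtrl replicate 3. NOP53 was not called without shCPVL replicate 2 or 3 or shCtrl replicate 1 or 3.

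Nucleolin (NCL) and nucleophosmin (NPM1), abundant chaperones of the nucleolus, were not called. NCL measured 12.83, 12.85 and 12.81 in the shCPVL arrays, against 12.93, 12.92 and 12.95 in the shCtrl arrays, slightly lower in all shCPVL arrays, with a difference of -0.10 (limma adjusted p = 0.16). NPM1 measured 13.51, 13.51 and 13.49 in the shCPVL arrays, against 13.55, 13.49 and 13.55 in the shCtrl arrays, with overlap and an interval of -0.13 to 0.08. The 6 NPM1 probe sets differed by -0.09 to 0.08 and limma called 0 of them, with 0 at an unadjusted p under 0.05. The authors' deposited table gave 3 of the 6 a false discovery rate under 0.05, in both directions, at -0.09 (0.00395), -0.07 (0.0209) and 0.08 (0.0347). It also gave a rate under 0.05 to the probe sets used here for NCL (0.0027, lower), NOP58 (0.0080, higher) and NOB1 (0.0497, higher). These genes were not called here. Of the 6 NPM1 probe sets 5 carry the suffix s_at or x_at, which marks probes that can match other transcripts. The probe set at 0.08 is aligned in the authors' table only to chromosome 8, whereas the NPM1 gene lies on chromosome 5.

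Over the whole list, 25 genes were not called, and for 21 of them the 95% interval of the difference lay within 1.2-fold in both directions. The exceptions were MXD4, RRP9, UBTF and UTP20, whose intervals reached past 1.2-fold. In 12 of the 25 the 3 shCPVL arrays stood wholly above or below the 3 shCtrl arrays. The share among all uncalled genes was not counted. Of all 35 genes, called or not, 14 stood wholly below and 8 wholly above, where 19.8% and 16.1% of all genes tested did.

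**Figure D4:**
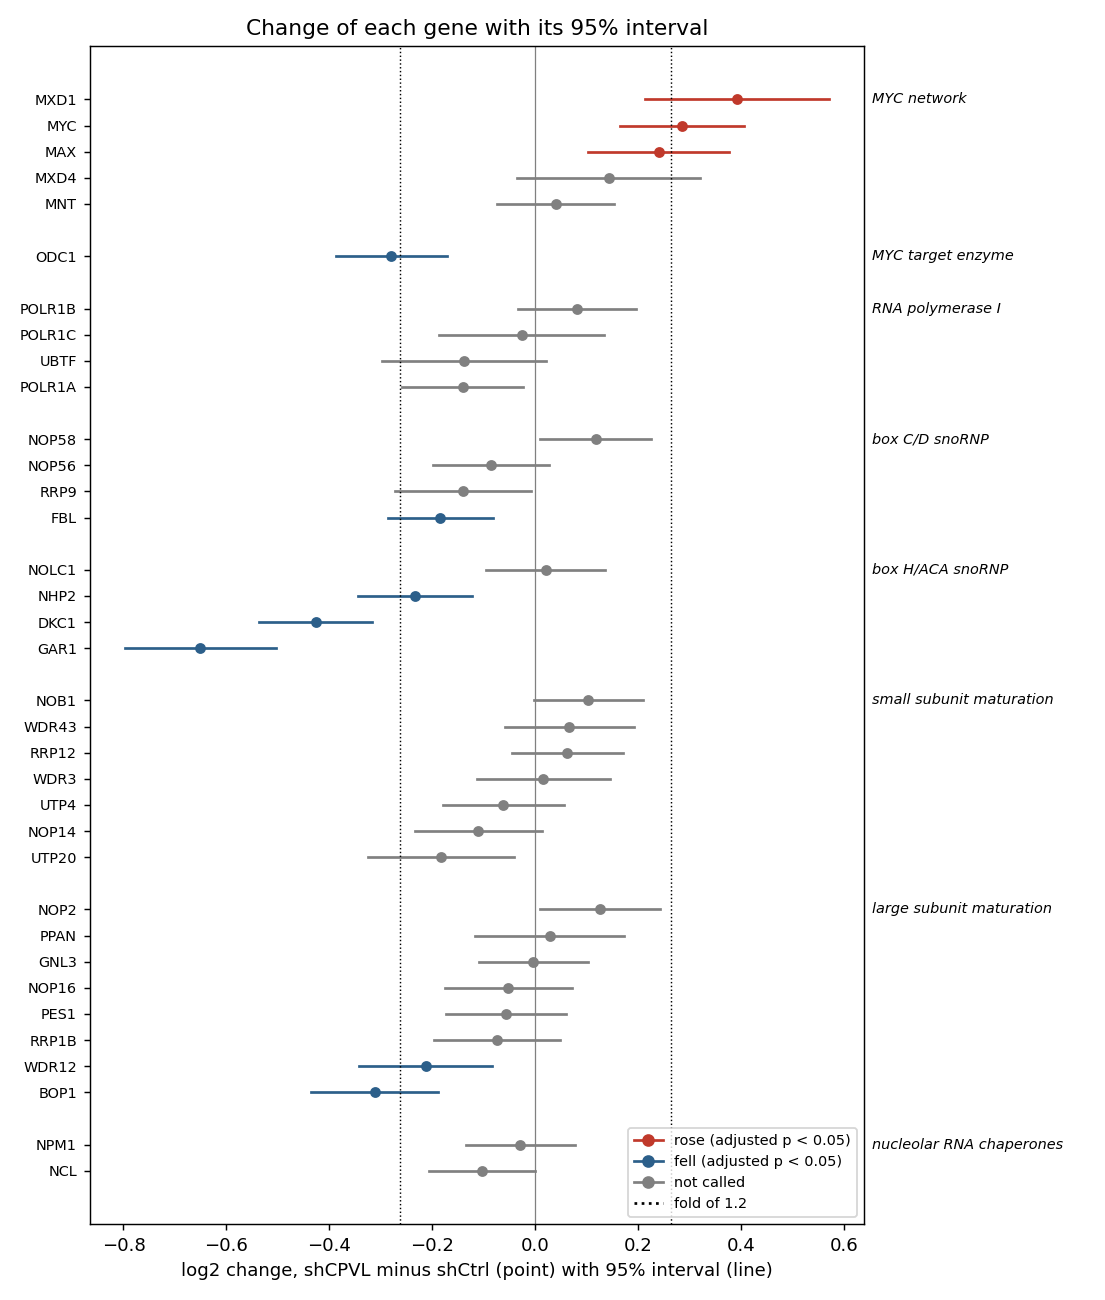
Log2 change of the 35 genes, shCPVL minus shCtrl, with its 95% interval from limma; red rose, blue fell, grey was not called, and dotted lines mark a fold of 1.2. GAR1 and DKC1 are the only genes whose whole interval lies beyond 1.2-fold.

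Ribosomal protein genes, which encode the protein part of the ribosome, showed few calls in the fit without an intensity trend. Of 74 measured cytosolic ribosomal protein genes 3 fell and 1 rose, 5.41% called against 20.1% of all genes, with a median of -0.01. RPLP0, of the ribosomal stalk, fell by 0.23, RPL35A rose by 0.38, and RPS3, named after its value was seen, fell by 0.17. RPL27A fell by 0.51, read by a single probe set at 5.96 in shCPVL and 6.47 in shCtrl, the dimmest of the 74. Whether that probe set reports the RPL27A transcript was not tested. RPL35A was -0.07 when its probe sets were summarised by their median, and the call of RPS3 was lost on leaving out any 1 array except shCtrl replicate 3. With an intensity trend in the variance model 16 of the 74 fell and 8 rose, where 4883 of all 18712 genes were called. The low share of calls thus depends on the variance model. Many of these genes have processed pseudogenes of near-identical sequence, which the probes may also read.

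**Figure D5:**
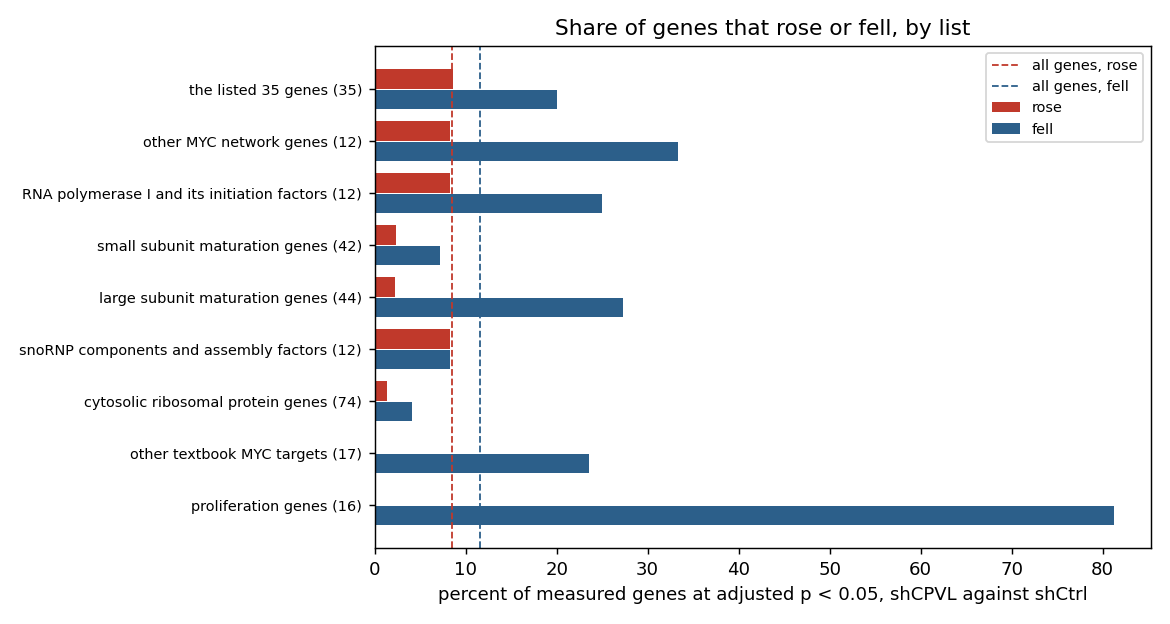
Percent of measured genes that rose (red) or fell (blue) in shCPVL against shCtrl for the 35 genes and each further list, with the number measured in parentheses; dashed lines give the percent of all 18712 genes. In this fit, without an intensity trend, small subunit and ribosomal protein genes lie below both lines, while large subunit genes lie above the line for fallen genes. The lines include dim genes, which are seldom called, so an excess over brighter genes is not shown.

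Genes of proliferation moved in the same arrays. Of 16 listed, 13 fell and 0 rose, 81.2% called beside 20.1% of all genes. The median was -0.29, and the falls were led by TYMS (-0.79), MCM2 (-0.62) and MCM6 (-0.60). The part of proliferation genes in the decreases of GAR1, DKC1, NHP2, BOP1 and ODC1 was not tested. Astroglial markers also fell in part, 5 of 10, with GFAP (-1.01), FABP7 (-0.68) and SLC1A3 (-0.56) the greatest (FABP7 was -0.385 when probe sets were reduced to their median), and the summed level of the 10 was 15.28 to 15.33 in shCPVL and 15.41 to 15.43 in shCtrl on the log2 scale.

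Of the markers of other cell types, 0 of 8 for microglia and macrophages, 0 of 6 for endothelium and 0 of 6 for oligodendrocytes were called, and the greatest differences there were CD68 (0.23), CLDN5 (-0.06) and OLIG2 (-0.22). At an unadjusted p under 0.05 these lists held 1, 0 and 0 genes. CD68 was called with the replicate block, its probe sets averaged or reduced to their median, and both filters on low genes (0.061 to 0.285 over all alternatives). Array weights, a fit that rested mostly on 1 array per group, called CLDN5 (-0.136) and OLIG2 (-0.478). Among 6 neuronal markers SYT1 (0.48) and NEFL (0.36) rose, and the summed log2 level of all 6 was 13.93 to 14.02 in shCPVL and 13.43 to 13.79 in shCtrl. That sum was carried mostly by the single probe set used for NEFL, at 13.94, 13.90 and 13.84 in the shCPVL arrays, against 13.31, 13.60 and 13.70 in the shCtrl arrays. SYT1 was 0.189 with the median of its probe sets. NEFL was -0.13 without x_at and s_at probe sets, and its call was lost on leaving out any 1 array except shCtrl replicate 3. Among 5 epithelial markers KRT18 rose by 0.23, with a summed log2 level of 9.61 to 9.62 in shCPVL and 9.41 to 9.48 in shCtrl, a call lost without shCPVL replicate 2 or shCtrl replicate 1, while EPCAM lay below the background mean in all 6 arrays. Bacterial hybridisation controls, added to every sample before hybridisation, stood 0.31 higher in shCPVL on average over 18 probe sets (0.16 to 0.41), and poly-A controls 0.17 higher over 12 probe sets (-0.07 to 0.31). The part of these markers and controls in the results was not tested.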

How the data were processed

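RNA of shCPVL and shCtrl U251 cells was measured on 1-colour Affymetrix-type arrays, 3 per group. The authors deposited log2 expression values after RMA, per the submitters' processing notes, and a comparison table with a p-value, a false discovery rate, a log2 fold change, gene identifiers and probe alignments per probe set, and a signed linear fold change, entered here as a score (negative where shCPVL is lower, per the file headers and values), of which nothing is printed; settings of RMA and the build of the alignments are not given in the sources used here. RMA brings the arrays' distributions close together, so a shift of all transcripts cannot be seen, and the 3 arrays per group limit the precision.

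Control probe sets were left out. Probe sets with exactly 1 Entrez identifier that has a RefSeq symbol (46726 of 49395) were reduced to 1 per gene, that with the highest mean over the 6 arrays (18712 genes), and 1994 with several identifiers were not assigned. Group differences were tested with limma 3.58.1 (lmFit and eBayes, R 4.3.3) with Benjamini-Hochberg adjustment over all genes, called at an adjusted p under 0.05; the script was tested on simulated data. Single probe sets were tested in the same way. Promoter windows came from RefSeq (GRCh38.p14).

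Genes named are the 35 members, CPVL and, for each further list, up to 3 called genes of greatest change (1 where none was called); VIM, CD44, NES, AQP4 and EPCAM are named as marker checks, outside this rule, after their values were seen, and others are said to be named after their values were seen. The members, the lists and the naming rule were chosen with earlier results of these data known. Alternatives tried were quantile normalization once more, median centring, a replicate block, eBayes with a trend or robust, array weights, the mean or median of probe sets, no x_at or s_at probe sets, 2 filters on low genes, a minimum fold of 1.2 (treat) and each array left out; the outermost promoter window alone was added after seeing the data.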

Additional observations from a re-analysis of the deposited data

How the results depend on the processing

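The calls of GAR1 held under all 18 alternatives, and those of MYC, MXD1, DKC1, NHP2, BOP1 and ODC1 under all of these that were run except a test against a minimum fold of 1.2; the second MXD1 probe set alone, added after seeing the data, was not called. Genes changed in shCPVL against shCtrl numbered 646 under that test, with 0 members that rose and 1 that fell, since it asks for more than a difference from no change. With quantile normalization once more or with an intensity trend, 5 members rose. Of the members not called in the main fit, NOP58 and UTP20 were each called in 5 of the 18 alternatives. NOP2, NCL and POLR1A were each called in 3. Array weights called 9761 genes, with 10 members that rose and 14 that fell. The weights were 6.84 for shCPVL replicate 2 and 3.96 for shCtrl replicate 1, against 0.38 to 0.51 for the other arrays. That fit therefore rested mostly on 1 array per group, and its counts are not a guide to replicated change. Leaving out 1 array gave 2380 genes (without shCPVL replicate 2) to 3282 genes, 2438 without shCtrl replicate 1, with 2 to 3 members that rose, 5 to 8 that fell and a median of -0.074 to -0.032; fewer arrays entered these fits. With a replicate block 3079 genes were called, with 3 members that rose and 6 that fell, FBL being lost; among other named genes RPS3, NEFL and NOP53 lost their calls and CD68 gained one. The labels do not say whether the replicate numbers pair the arrays. Deviations of same-numbered arrays correlated at -0.249, 0.087 and 0.219, which cannot settle it without the differently numbered pairs beside them. With the median of probe sets MXD3 was 0.082, HEATR1 0.050 and RPL35A -0.068, and without x_at and s_at probe sets NEFL was -0.128. Of the large subunit genes outside the 35, 7 fell with the block and 17 with a trend or array weights; of the ribosomal protein genes 16 fell and 8 rose with a trend. The cause of these shifts was not tested. On the probe sets used, all 35 members lay above the background mean on every array, and 4 members not called had intervals reaching past 1.2-fold.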

Other observations

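Probe sets that the authors' deposited table assigns to 2 genes were left out of the comparison by gene and tested singly. Besides that of PPAN, DKC1 and NCL had 1 each. The DKC1 one averaged 4.54 in shCPVL and 4.66 in shCtrl (difference -0.12, limma adjusted p = 0.35), below the background mean but above the background median. The NCL one averaged 4.96 in shCPVL and 4.94 in shCtrl (difference 0.03, limma adjusted p = 0.80).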
